A study of Homo sapiens with 33 samples.

Results

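H3K4me3 was compared between 2 kinds of H9 human ESCs. These were EZH2-/- ESCs (null) and EZH2-/- ESCs in which doxycycline induced an EZH2 transgene (EZH2-/- +EZH2, here EZH2-restored). The comparison covers all 149487 start-site windows on chromosomes 1 to 22 of the 153958 windows in the table, and 4 of the 33 samples of the series: the H3K4me3 column and the input column of each genotype. Each window spans 2.5 kb either side of an annotated transcript start on GRCh38. H9 is an established ESC line, the null alleles were made with CRISPR/Cas9, and the transgene was carried by a piggyBac vector under a doxycycline-inducible promoter. By the study's methods the transgene was put into heterozygous cells that were then edited again, and null cells came from such cells without doxycycline or after the transgene was excised. Clones were picked to make the lines, both genotypes were grown on mouse embryonic fibroblasts, and SSEA4-positive cells were sorted for native ChIP. The labels do not say which kind of null cells was profiled. EZH2+/+ (wild-type) and EZH2-/+ (heterozygous) ESCs are used for levels and for promoter classes. Each column is the mean of 2 libraries on the log2 scale, so no replicate spread exists for ChIP, and differences between columns are given without a test. RNA-seq had 3 libraries per genotype and is tested.

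H3K4me3, trimethylation of lysine 4 on histone H3, marks the start sites of active genes and of most CpG-rich promoters, where it is laid down by the SET1 and MLL (KMT2) methyltransferase complexes. H3K27me3 is the product of Polycomb repressive complex 2 (PRC2), whose main catalytic subunit in ESCs is EZH2. In ESCs many silent developmental genes carry both marks and are called bivalent.

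Read numbers per window, as RPM (reads per M reads of the library, M being mega), were compared as log2(RPM + 0.1), and a change is the restored value minus the null value on that scale. For each of 34448 gene names 1 promoter was taken, the window with the most H3K4me3 in wild-type cells. Promoters were classed on wild-type columns alone. There were 4857 promoters with both marks (bivalent), 12023 with H3K4me3 only, 854 with H3K27me3 only and 16704 with neither, and 10 had a high input. In each RPM column 1 read is worth a fixed step, from which a mean depth per library of 10.3 M reads for null H3K4me3 and 17.4 M for restored H3K4me3 was recovered (17.8 and 19.2 M for the inputs). Counting error alone gives a change a standard error of 0.28 at 2 RPM, 0.18 at 5 RPM and 0.13 at 10 RPM. Median H3K4me3 at promoters with H3K4me3 only was 10.1 times that at promoters with neither mark in null cells and 9.20 times in restored cells. By chromosome, the median change ran from -0.10 to -0.02 for H3K4me3 and from 0.02 to 0.08 for input.

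Promoters that recur in the results show the range of sequence involved. Each is the RefSeq promoter on GRCh38.p14, 250 bases before to 50 bases after the start, 5′ to 3′ on the gene's strand, with every CG dinucleotide, the site of CpG methylation, in capitals. The first 3 had more H3K4me3 in restored cells: PRDM12 (chr9:130664344-130664643, + strand, 27 CG), NKX2-4 (chr20:21397477-21397776, - strand, 19 CG) and TBX1 (chr22:19756453-19756752, + strand, 22 CG). The last 3 had less: CIART (chr1:150282304-150282603, + strand, 17 CG), ZNF154 (chr19:57709155-57709454, - strand, 14 CG) and TDRD1 (chr10:114179037-114179336, + strand, 17 CG).
PRDM12: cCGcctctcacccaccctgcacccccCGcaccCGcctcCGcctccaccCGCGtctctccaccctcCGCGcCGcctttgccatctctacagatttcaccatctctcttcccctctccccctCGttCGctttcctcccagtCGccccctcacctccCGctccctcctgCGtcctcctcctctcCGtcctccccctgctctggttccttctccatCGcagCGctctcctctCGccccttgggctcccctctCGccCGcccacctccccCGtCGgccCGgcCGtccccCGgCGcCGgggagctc
NKX2-4: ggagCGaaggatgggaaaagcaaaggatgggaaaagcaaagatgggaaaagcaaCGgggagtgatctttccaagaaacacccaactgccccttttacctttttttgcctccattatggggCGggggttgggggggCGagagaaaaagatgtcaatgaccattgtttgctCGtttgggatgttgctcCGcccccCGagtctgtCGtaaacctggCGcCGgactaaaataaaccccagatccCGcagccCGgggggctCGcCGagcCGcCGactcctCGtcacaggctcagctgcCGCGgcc
TBX1: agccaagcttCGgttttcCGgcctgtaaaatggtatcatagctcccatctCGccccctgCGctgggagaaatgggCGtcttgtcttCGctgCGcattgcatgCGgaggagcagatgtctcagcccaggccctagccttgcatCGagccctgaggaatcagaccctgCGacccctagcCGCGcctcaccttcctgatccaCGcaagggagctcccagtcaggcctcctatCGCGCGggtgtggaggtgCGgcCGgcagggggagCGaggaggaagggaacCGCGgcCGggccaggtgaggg
CIART: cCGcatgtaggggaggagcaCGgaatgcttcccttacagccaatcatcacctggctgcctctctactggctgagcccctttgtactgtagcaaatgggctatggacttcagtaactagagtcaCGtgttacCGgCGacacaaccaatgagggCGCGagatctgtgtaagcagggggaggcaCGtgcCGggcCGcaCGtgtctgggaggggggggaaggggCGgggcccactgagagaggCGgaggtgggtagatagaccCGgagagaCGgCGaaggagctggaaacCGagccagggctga
ZNF154: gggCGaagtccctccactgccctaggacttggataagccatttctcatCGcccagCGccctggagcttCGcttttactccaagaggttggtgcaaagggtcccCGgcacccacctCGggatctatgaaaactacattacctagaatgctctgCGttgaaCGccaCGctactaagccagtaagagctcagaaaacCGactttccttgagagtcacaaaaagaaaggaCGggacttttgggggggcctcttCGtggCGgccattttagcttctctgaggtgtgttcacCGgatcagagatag
TDRD1: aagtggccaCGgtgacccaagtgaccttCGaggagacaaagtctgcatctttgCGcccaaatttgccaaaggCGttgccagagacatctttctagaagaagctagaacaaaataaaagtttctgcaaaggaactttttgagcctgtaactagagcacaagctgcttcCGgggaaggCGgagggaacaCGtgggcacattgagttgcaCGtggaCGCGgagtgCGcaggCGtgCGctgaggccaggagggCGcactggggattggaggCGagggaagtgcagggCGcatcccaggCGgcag

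CG is its own reverse complement, so the count is the same on both strands. The median of 26246 RefSeq promoters on the autosomes was 14 CG, and 95.8% held at least 1. Of the bivalent promoters 2789 were matched by gene symbol, with a median of 27 CG, and of those with H3K4me3 only 7627 were matched, with a median of 26. The median was 22 for 41 matched promoters at least 2-fold higher in restored cells and 12 for 13 matched promoters at least 2-fold lower. Most of the lower promoters, as given below, had neither mark in wild-type cells, a class whose 4244 matched promoters had a median of 4.

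H3K4me3 moved little on restoration of EZH2, and by different amounts at different classes of promoter. The sign of each median rests on the RPM scale. Centring on promoters with H3K4me3 only, a shift of 0.13, sets their median to 0 and leaves the difference between classes. The median change was 0.09 at bivalent promoters and -0.13 at promoters with H3K4me3 only, 0.15 at promoters with H3K27me3 only and 0.00 at promoters with neither mark. H3K4me3 was higher in restored cells at 63.6% of bivalent promoters and at 20.3% of those with H3K4me3 only. Input changed by a median of 0.05 and 0.06 in these 2 classes. The median H3K27me3 change was 3.47 at bivalent promoters and 0.48 at those with H3K4me3 only. For H3K27ac, a mark of active promoters and enhancers, the medians were -0.68 and -0.10. For H3K4me1, found at enhancers and at promoter flanks, the medians were -0.33 and -0.17. Subtracting the input change left the medians of H3K4me3 apart, at 0.05 and -0.18.

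**Figure D1:**
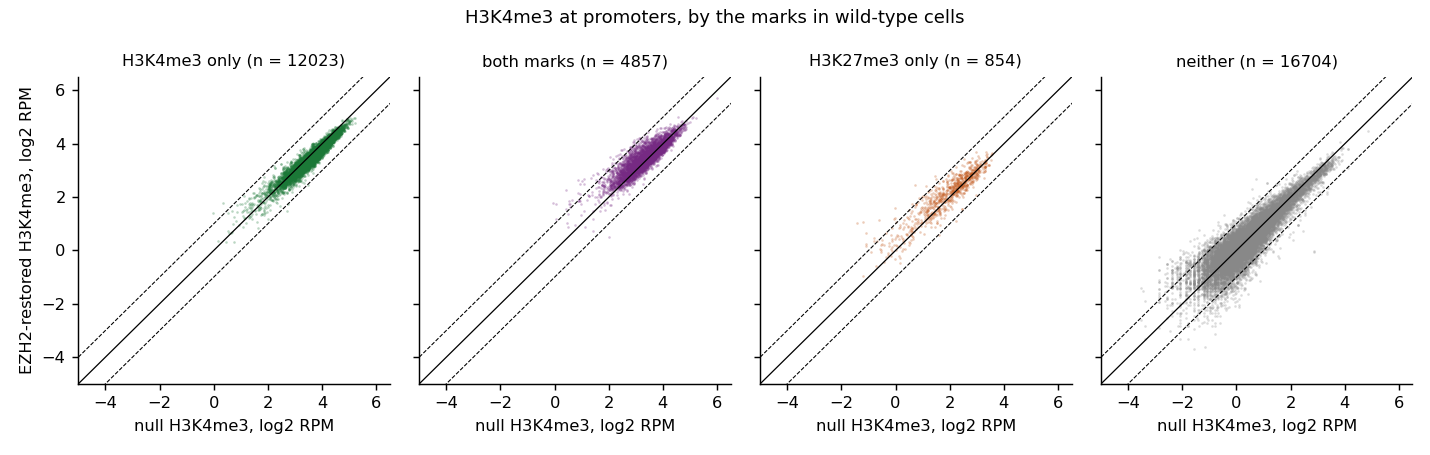
Null (x axis) against EZH2-restored (y axis) H3K4me3 in log2 RPM, 1 point per promoter, in 4 panels by the marks the promoter carried in wild-type cells, with a solid line at equal levels and dashed lines at a 2-fold difference. Bivalent promoters lie mostly above the line (63.6% of 4857) and only 20.3% of 12023 promoters with H3K4me3 alone do.

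At bivalent promoters the levels in the other genotypes put the null column apart. Because columns differ in depth and in enrichment, the median level of bivalent promoters was divided by the median level of promoters with H3K4me3 only in the same column. This ratio was 0.95 in wild-type, 0.95 in heterozygous, 0.79 in null and 0.94 in restored cells. Among the quintile of bivalent promoters with the most EZH2 in wild-type cells it was 1.15, 1.16, 0.80 and 1.17 in the same order. For the bivalent promoters of genes described as homeobox genes, a set chosen after their values were seen, it was 1.11, 1.04, 0.78 and 1.14. In all 3 sets the null column was the lowest. At promoters with H3K27me3 only the ratio was 0.35, 0.37, 0.33 and 0.41 in the same order. There the null column lay close to wild type and the restored column was the highest. The wild-type H3K4me3 column is the shallowest, at 3.43 M reads per library, and it entered the class definition. It also had the lowest ratio of promoters with H3K4me3 only to promoters with neither mark, at 5.85.

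Across bivalent promoters the change differed with the amount of EZH2 in wild-type cells, a column that is not part of the comparison. From the lowest to the highest quintile by EZH2, the median H3K4me3 change was 0.00, 0.01, 0.03, 0.14 and 0.39. The share of promoters at least 1.5-fold higher was 3.44% in the lowest quintile and 28.5% in the highest. Input changed by a median of 0.04 to 0.06 in all 5 quintiles. EZH2-rich windows are also richer in G and C, with a median GC content of 57.8% in the highest quintile and 51.2% in the lowest. Within the lower-GC members of the bivalent class the medians of the lowest and highest EZH2 quintiles were -0.03 and 0.26, and within the higher-GC members 0.04 and 0.46. Ordered by their gain of H3K27me3 instead, the quintiles had median H3K4me3 changes of -0.08, 0.00, 0.11, 0.19 and 0.23. Across the 4857 bivalent promoters Pearson's r of the H3K4me3 change was 0.45 with EZH2, 0.35 with the H3K27me3 change and -0.01 with the input change. These are descriptions across promoters, which share libraries and base composition. At promoters with H3K4me3 only the EZH2 quintiles had medians between -0.14 and -0.10.

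**Figure D2:**
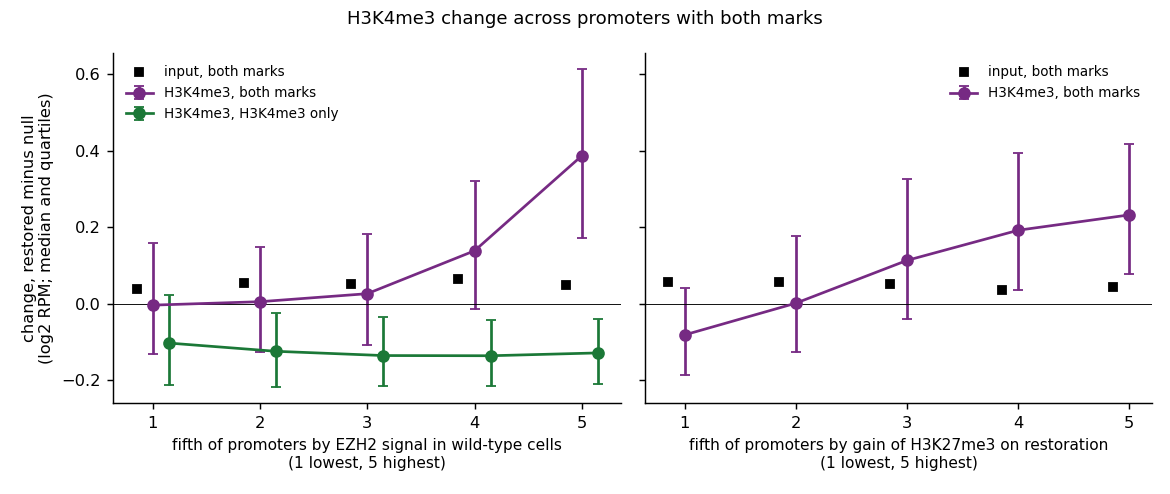
Median H3K4me3 change with quartiles (y axis, log2 RPM, restored minus null) over quintiles of promoters, ordered by wild-type EZH2 signal (left) or by the gain of H3K27me3 on restoration (right), in purple for bivalent promoters, green for promoters with H3K4me3 only and black squares for input at bivalent promoters. The purple medians go from 0.00 to 0.39 on the left and from -0.08 to 0.23 on the right.

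Of 21727 promoters with a mean of at least 2 RPM, 81 (0.373%) were at least 2-fold higher in restored cells and 27 (0.124%) at least 2-fold lower, in 72 and 24 separate stretches of genome. At 1.5-fold the counts were 681 (3.13%) and 160 (0.736%). Bivalent promoters made up 57 of the 81 and 1 of the 27. Promoters with neither mark made up 17 of the 81 and 23 of the 27. Among all windows, 267 were at least 2-fold higher and 107 at least 2-fold lower, in 130 and 37 stretches. Centring on promoters with H3K4me3 only, a shift of 0.13, gave 169 higher and 17 lower, and subtracting the input change gave 148 and 135. For comparison, 5% to 95% of promoters at this level changed between -0.35 and 0.47 here and between -0.38 and 0.51 in input. Input was at least 2-fold higher at 15 of these promoters and at least 2-fold lower at 2. Input has fewer RPM per window than H3K4me3, so counting error is a larger part of its range and enters the counts after subtraction. Between heterozygous and wild-type columns the same range was -0.79 to 1.09, with the shallow wild-type column in it. It covers 22773 promoters with at least 2 RPM in those columns and lies around a median of 0.44, against -0.07 for restored minus null.

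The 10 promoters with the largest positive change, among those with at least 5 RPM and an input change within 0.5, were all bivalent. DOK7, an adaptor that activates the muscle kinase MuSK, had 4.11 RPM in null and 11.4 RPM in restored cells, a change of 1.45, with 7.00 RPM in wild-type and 7.25 RPM in heterozygous cells. HSF4, a heat shock factor of the lens, had 5.46 and 13.5 RPM (1.29). DMRT1, a sex-determination factor of the testis, had 3.46 and 8.37 RPM (1.25). These promoters began at low H3K4me3 in null cells, and HSF4 and DMRT1 were at 14.96 and 8.61 RPM in wild-type cells.

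A further 6 were genes of nervous system patterning and WNT signalling. NKX2-4, a homeobox gene of the ventral forebrain, had 3.04 RPM in null and 7.35 RPM in restored cells (change 1.25). PRDM12, a regulator of sensory neuron fate, had 7.70 and 17.5 RPM (1.18). FEZF2, a forebrain zinc finger factor, had 7.41 and 16.6 RPM (1.15). UNCX, a homeobox gene of somites and neural tube, had 4.33 and 9.67 RPM (1.14). The ligands WNT7B and WNT3A had 5.94 and 14.1 RPM (1.24) and 8.31 and 18.3 RPM (1.13). H3K27me3 at these 10 promoters was between 0.904 and 7.36 RPM in null cells and between 22.9 and 47.8 RPM in restored cells. In all 10 the null level was below both the wild-type and the heterozygous level, as it was in 76 of the 81 promoters at least 2-fold higher. Their choice used the null column, so that count is a description.

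The 10 promoters with the largest negative change, chosen in the same way, were of another kind: 6 were classed with neither mark, 3 with H3K4me3 only and 1 as bivalent. The class with neither mark is set by a threshold on wild-type columns, so its members can hold some H3K4me3. Its median there was 1.88 RPM. CIART, a repressor in the circadian clock, had 10.1 RPM in null and 4.39 RPM in restored cells, a change of -1.19, with 4.32 RPM in wild-type and 3.27 RPM in heterozygous cells. CXADR, a cell adhesion receptor, had 11.3 and 5.45 RPM (-1.03) but 11.8 RPM in wild-type cells. Input at CXADR changed by -0.46. LOXHD1, a gene of hair cells in the ear, had 8.74 and 4.33 RPM (-0.99), against 1.79 and 0.996 RPM in wild-type and heterozygous cells. ERVH48-1, an endogenous retroviral gene also known as suppressyn, had 15.1 and 7.96 RPM (-0.92), with 4.23 RPM in wild-type cells. At LOXHD1 and ERVH48-1 the restored level lay between the null and the wild-type levels.

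LINC01356 had 8.38 and 4.57 RPM (-0.86). LNX1, a ubiquitin ligase, had 9.22 and 5.27 RPM (-0.80), but its first listed window, at another start, changed by 0.19. The zinc finger genes ZNF154 and ZNF738 on chromosome 19 had 12.7 and 7.56 RPM (-0.74) and 10.4 and 6.26 RPM (-0.72). MAL2, a membrane traffic protein and the bivalent member, changed by -0.74, and CST1, a secreted cystatin, by -0.70. Among all 252 promoters on chromosome 19 described as zinc finger protein genes, a set chosen after values were seen, the median change was -0.17 and 22.6% were higher in restored cells, close to the -0.13 and 20.3% of all promoters with H3K4me3 only. The null level was above both the wild-type and heterozygous levels in 24 of the 27 promoters at least 2-fold lower, again a description, since a high null level helped to choose them.

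**Figure D3:**
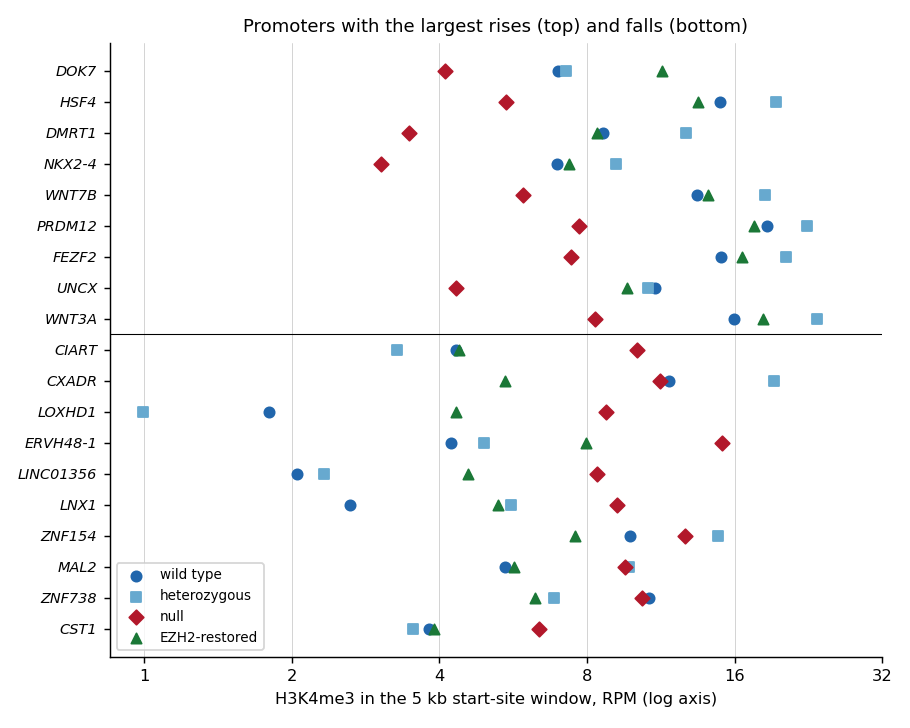
H3K4me3 in the 4 genotypes (x axis, RPM in the 5 kb window, log axis) at 9 of the 10 promoters with the largest positive changes (top) and the 10 with the largest negative changes (bottom), 1 symbol per genotype and no error bar, since each value is a mean of 2 libraries. Red diamonds (null) lie left of all other symbols in the top group, for example at 4.11 RPM for DOK7.

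Developmental regulators were examined through 18 gene lists, of which 269 of 271 genes had an autosomal promoter. Neuroectoderm regulators had the highest median of the 18. All 31 promoters were bivalent and higher in restored cells, with a median change of 0.52, and 14 (45.2%) were at least 1.5-fold higher, against 8.37% of bivalent promoters and 3.13% of all promoters over 2 RPM. Their median EZH2 in wild-type cells was 6.04 RPM. The bivalent quintile with the most EZH2, given above, had a share between 8.37% and 45.2%. The neuroectoderm promoters ranged from NEUROG1, a proneural factor, with 4.34 RPM in null and 9.17 RPM in restored cells (1.06), to POU3F2, with 16.4 and 16.6 RPM (0.01). Input at NEUROG1 changed by 0.70.

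HOX genes, which pattern the body axis, gave 37 higher of 39 promoters in the 4 clusters, with a median of 0.34. Of these 10 (25.6%) were at least 1.5-fold higher and 0 at least 1.5-fold lower, a description with no test. Among all promoters over 2 RPM 3.13% were at least 1.5-fold higher. In the bivalent quintile with the most EZH2, given above, the share was larger than at HOX promoters. HOXD3 went from 4.04 to 7.88 RPM (0.95), though its first listed window changed by -0.00, while HOXA5 had 12.2 and 10.7 RPM (-0.19). By cluster the medians were 0.33 for HOXA, 0.34 for HOXB, 0.49 for HOXC and 0.33 for HOXD, and RNA of 12 of the 21 HOX genes tested fell (limma, adjusted p under 0.05), against 2.63% of all genes and 7.51% of bivalent genes tested. Across all 167 bivalent homeobox genes, by the same description as above, the median H3K4me3 change was 0.35 and 46 (27.5%) were at least 1.5-fold higher. That share too was below the one of the quintile with the most EZH2. At 30 homeobox genes with H3K4me3 only the median was -0.08.

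Of 15 endoderm regulators 14 were higher, with a median of 0.33, from 0.58 at GSC to -0.16 at FOXA3, which had H3K4me3 only. Mesoderm regulators varied more. Their median was 0.16 over 35 promoters, of which 31 were bivalent. At least 1.5-fold higher were 7 (20%), against 3.13% of all promoters over 2 RPM. That share was below the one of the bivalent quintile with the most EZH2. The extremes were the T-box genes TBX1, with 4.82 RPM in null and 11.8 RPM in restored cells (1.27), and TBX3, with 19.6 and 13.7 RPM (-0.51). Input at TBX1 changed by -0.51. In the trophectoderm and amnion list the median of 11 promoters was -0.01, from 0.72 at CDX2 to -0.42 at TFAP2B. CDX2 was 1 of 2 (18.2%) at least 1.5-fold higher, a share also below that of the quintile with the most EZH2. After centring on promoters with H3K4me3 only the median of this list turned to 0.12.

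Lists of genes active in ESCs had medians slightly below 0. The median was -0.16 over 22 core pluripotency genes, with POU5F1, the gene for OCT4, at 33.5 RPM in null and 29.3 RPM in restored cells (-0.19), the bivalent UTF1 at 0.22 and LEFTY2, a NODAL antagonist, at -0.48. It was -0.18 over 20 housekeeping genes, from 0.10 at B2M to -0.34 at ACTG1, where input changed by -0.72. PRC2 subunits had a median of -0.11, from 0.22 at C17orf96 to -0.24 at SUZ12, and EZH2 itself had 12.9 and 12.4 RPM (-0.06). The writers of H3K4 methylation had a median of -0.14, from CXXC1 (0.12) to SETD1A (-0.31). A list of 6 histone demethylases of the KDM1, KDM2 and KDM5 families, not all of them known for H3K4, had -0.06. It ran from KDM2A (0.05) to KDM1A (-0.29). Its KDM1 and KDM5 members were KDM1A, KDM5A (-0.27), KDM1B (-0.08) and KDM5B (0.00). None of these 5 lists held a promoter changed by 1.5-fold. After centring on promoters with H3K4me3 only, the median became 0.02 for PRC2 subunits and 0.07 for the demethylase list with its KDM2 members, a turn in sign. It was -0.04 for pluripotency genes, -0.05 for housekeeping genes and -0.02 for the writers.

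Of 19 imprinted genes PLAGL1, a zinc finger factor, went from 1.92 to 5.66 RPM (1.51), with 10.5 RPM in wild-type cells, while BLCAP was at -0.31 and the median was 0.07. The median of 9 germline genes over 2 RPM was -0.24, but 0.11 over all 16. NANOS3, a germ cell RNA-binding protein, had 5.21 and 7.21 RPM (0.46), and TDRD1, a tudor protein of the piRNA pathway, went from 3.85 to 1.40 RPM (-1.40), with 1.77 RPM in wild-type cells. CDK inhibitors had a median of -0.06 (0.07 after the same centring), from CDKN1A (0.22) to CDKN2B (-0.30), and extracellular matrix and EMT genes 0.03, from SNAI2 (0.43) to FN1 (-0.28). At the promoters that the study examined by ChIP-qPCR the changes were 0.38 at GATA4, 0.40 at MESP1, 0.42 at SOX17, 0.10 at TMEM255B and -0.16 at GAPDH, the first 4 being bivalent.

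RNA was then set beside H3K4me3. EZH2 RNA was 11.5, 8.65 and 9.68 RPM in the null libraries and 271, 385 and 256 RPM in the restored libraries (log2 change 4.91, SE 0.17, limma adjusted p = 1.24e-08). Of 20608 genes tested, 108 (0.524%) rose and 542 (2.63%) fell in restored cells (limma, adjusted p under 0.05). With the replicate block the counts were 661 and 1276, and without the second null library they were 12 and 106. Core pluripotency RNA summed to 6433 to 6939 RPM in null and 4995 to 6231 RPM in restored libraries. Mesoderm regulators summed to 290 to 470 RPM and 115 to 243 RPM, where 16 of 32 tested fell (24 with the replicate block), and endoderm regulators to 232 to 577 RPM and 60.1 to 125 RPM, where 3 of 16 fell (9 with the replicate block). For neuroectoderm regulators the sums were 77.1 to 85.1 and 70.96 to 92.2 RPM, with 0 of 21 called by limma, also 0 with the block. In bulk samples a different share of cells and a different level per cell cannot be told apart, and the part of these sums in the H3K4me3 changes was not tested.

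Of 3767 bivalent genes tested 283 (7.51%) fell in RNA, and 623 with the replicate block. The median H3K4me3 change of the 283 was 0.08, against 0.06 for 3466 genes without a call. Leaving out 1 RNA library gave 58 to 339 genes that fell at bivalent promoters, 58 without the second and 96 without the third null library, and 110 to 143 without a restored library. Their median H3K4me3 change was then between -0.01 and 0.10, below 0 without the second or the third null library. When only genes with at least 1 RPM were tested, 129 fell at bivalent promoters and their median was -0.06. H3K27ac at the 283 promoters changed by a median of -0.82, against -0.67. TBX1 RNA was 0.510, 1.41 and 1.75 RPM in null and 0.0772, 0 and 0.0400 RPM in restored libraries (log2 change -3.14, limma adjusted p = 0.0028), at a promoter whose H3K4me3 was 2.41-fold higher. At TBX3 RNA was 7.12, 15.97 and 10.4 RPM and then 0.360, 0.563 and 1.56 RPM (log2 change -3.74, limma adjusted p = 0.0028), with less H3K4me3. HOXD13 RNA was 2.13, 4.37 and 2.49 RPM in null and 0 RPM in all 3 restored libraries (limma adjusted p = 1.7e-05), and its promoter changed by 0.11 in H3K4me3. The H3K4me3 changes at these 3 genes differ in sign. All 3 were called in each of the 6 fits that left out 1 library.

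Among the 81 promoters at least 2-fold higher, 29 had RNA that could be tested. RNA fell at 1 (3.45%) and rose at 1 (3.45%), against 2.61% and 0.589% of promoters over 2 RPM. TBX1 fell and NETO1, a synaptic receptor partner named after its values were seen, rose from 0, 0.0188 and 0 RPM to 0.334, 0.750 and 0.719 RPM (limma adjusted p = 0.00287), with H3K4me3 at 3.77 RPM in null and 8.04 RPM in restored cells. The other genes tested did not pass. With the replicate block 3 rose, and with a pseudocount of 1 RPM 0 rose and 2 fell. FEZF2 was between 0 and 0.0352 RPM in all 6 libraries, and PRDM12 was at most 0.0352 RPM in null and 0.0536 to 0.240 RPM in restored libraries.

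At promoters with neither mark, the 144 whose RNA fell had a median H3K4me3 change of -0.20, against -0.00 for 4391 without a call. These genes could pass the filter on RNA through the null libraries alone. At promoters with H3K4me3 only the medians were -0.22 for 53 genes whose RNA fell, -0.13 for 10972 without a call and 0.05 for 75 whose RNA rose. With the replicate block the median at promoters with neither mark and RNA that fell was -0.15, and it ran from -0.40, without the third null library, to -0.19 when 1 library was left out. At promoters with H3K4me3 only and RNA that fell, the median then ran from -0.28 to -0.02, the last without the third restored library. The difference between classes was not tested.

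Of the 27 promoters at least 2-fold lower, 17 had RNA that could be tested, and RNA fell at 10 (58.8%) and rose at 0, against a fall at 2.61% of promoters over 2 RPM and 4.50% of those with neither mark. A promoter or gene can pass the filters on H3K4me3 and on RNA through its null level alone, so these counts are a description. That count was 10 with the replicate block, 4 to 8 when 1 library was left out, and 1 when only genes with at least 1 RPM were tested. PEX11A, a peroxisome proliferation factor whose window overlaps that of WDR93, named after its values were seen, had 7.35 RPM of H3K4me3 in null and 0.996 RPM in restored cells (-2.76), against 1.66 RPM in wild-type cells. Its RNA was 1.14, 0.882 and 0.772 RPM in null and 0.0257, 0 and 0 RPM in restored libraries (limma adjusted p = 0.000784). TDRD1 RNA was 1.20, 2.68 and 2.14 RPM and then 0.0257, 0 and 0 RPM (limma adjusted p = 2.14e-05). Both genes were called in all 6 fits that left out 1 library. Among the 10 largest negative changes, RNA fell at LOXHD1 (limma adjusted p = 0.0251), ERVH48-1 (limma adjusted p = 0.0207), MAL2 (limma adjusted p = 0.00377) and CST1 (limma adjusted p = 0.0335). MAL2 alone of these 4 was called in all 6 fits, and the largest p of the others was between 0.0908 and 0.174. RNA of CIART was 3.04, 2.95 and 3.86 RPM and then 1.05, 2.97 and 8.87 RPM, which overlap (limma adjusted p = 0.971), and RNA of CXADR overlapped too (limma adjusted p = 0.933).

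**Figure D4:**
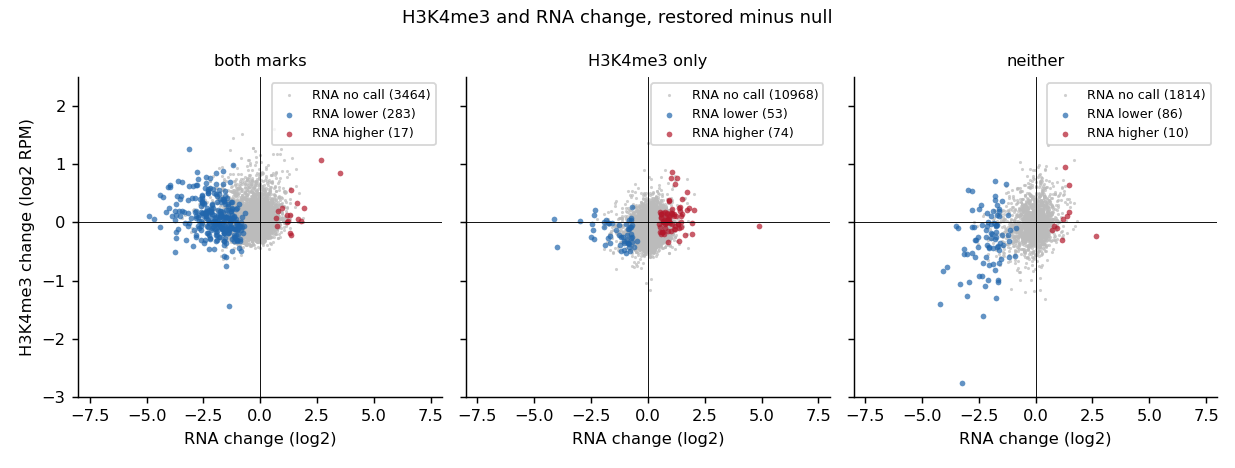
RNA change (x axis, log2, limma) against H3K4me3 change (y axis, log2 RPM), restored minus null, for promoters with at least 2 RPM, in 3 panels by class, with blue and red points for genes whose RNA fell or rose, grey points for those without a call, and numbers of genes in brackets. Blue points lie around 0 at bivalent promoters (283 genes) and mostly below 0 at promoters with neither mark (86 genes).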

How the data were processed

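ChIP-seq for 4 histone marks and input, and RNA-seq in 3 libraries per genotype, were measured in H9 ESCs of 4 genotypes. The authors trimmed reads (Trim Galore 0.4.0), aligned them to GRCh38 (Bowtie2 2.2.5 for ChIP, TopHat2 2.0.12 for RNA), and counted reads in SeqMonk, for ChIP after extension and without duplicates. The deposited tables hold log2 RPM, with windows or genes without a read set to 0.9 of 1 read. RNA was counted without regard to strand, so overlapping antisense genes share reads. The low values of each histone and input column lie on the steps of a mean of 2 libraries (within 0.002), whereas the study describes 3 biological replicates.

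Values were returned to RPM. Promoters were classed by wild-type input under 0.1 and the mark over 0.1 log2 RPKM, a rule that the methods give for H3K27me3 and that was applied here to H3K4me3 too, so the classes are not the study's own sets. Windows were checked against GENCODE 44: 85.1% are centred on a transcript start within 1 base. GC content came from GRCh38 and promoter sequences from RefSeq. RNA was tested with limma 3.58.1 in R 4.3.3 (lmFit, eBayes with trend, all 12 libraries, Benjamini-Hochberg) on log2(RPM + 0.1), a scale that understates changes of low genes, leaving out genes whose mean was under 0.1 RPM. RNA depth was 16.6 to 36.6 M reads on genes, for which a floor of 3 reads is 0.0528 to 0.120 RPM. Whole reads (within 0.1) were recovered for 100% of RNA values under 1000 reads, but the deposited unit is log2, so no count model was run. Same-numbered null and restored RNA libraries deviated together (r = 0.19 to 0.41 in 3 pairs, -0.32 to 0.21 otherwise), so a fit with the replicate block is given where it moves a printed count by 1.5 times or more, as far as it was counted. The study calls the RNA libraries biological replicates without saying that they were separate cultures, so p-values measure only the spread between these libraries.

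Named genes were the 10 largest rises and 10 largest falls (at least 5 RPM, input change within 0.5, no clone-type names, 1 of each set of overlapping windows), the highest and lowest member of each of 18 lists, the ChIP-qPCR promoters and EZH2. 1 of the named genes is not reported here. Members, lists and rules were chosen with earlier results of these data known.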

Additional observations from a re-analysis of the deposited data

How the results depend on the processing

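ChIP has 1 column per genotype, so counting error is the only error known, and at 2 RPM it reaches 0.28. The difference between bivalent promoters and promoters with H3K4me3 only kept its sign under every alternative run, while the small medians moved. The bivalent median was 0.21 after centring, 0.0508 minus input, 0.10 with the first listed windows, 0.0708 over all windows and 0.18 at a class threshold of 1 log2 RPKM. That of promoters with H3K4me3 only was 0 after centring by construction, -0.12 with a pseudocount of 1 RPM, -0.18 minus input and -0.12 with the first listed windows. That of promoters with H3K27me3 only was 0.28 after centring, 0.0772 at 5 RPM, 0.18 with the first listed windows and 0.20 at the higher threshold. That of promoters with neither mark was 0.13 after centring, -0.0311 minus input, -0.0174 at 2 RPM, -0.12 at 5 RPM, 0.00919 over all windows and -0.0381 at the higher threshold.

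The 81 higher and 27 lower promoters became 34 and 8 with a pseudocount of 1 RPM, 169 and 17 after centring, 148 and 135 minus input, 305 and 216 without a filter, 37 and 4 at 5 RPM, 267 and 107 over all windows and 681 and 160 at 1.5-fold. With the input change within 0.25, an alternative chosen after seeing the data, 46 were higher. LNX1 (0.19) and HOXD3 (-0.00124) turned sign with the first listed window. The causes were not tested.

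RNA calls, 108 higher and 542 lower, were 661 and 1276 with the replicate block, where all 650 were called again. They were 59 and 343 without a filter, 67 and 221 at 1 RPM, and 67 higher with the 6 libraries of both genotypes alone. Leaving out 1 library gave 12 to 136 higher and 106 to 640 lower. The lowest counts came without the second null library, and those without the third null library were 37 and 171. Without restored replicates 1, 2 and 3 they were 49 and 283, 31 and 207, and 25 and 255.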
